A study of Mus musculus with 4 samples.

Results

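The semaphorin, ephrin and netrin guidance genes of the mouse were 63 of the 32285 genes in the deposited matrices, and each was taken by its symbol. These families were chosen with earlier results of these data known, so their shares beside all genes are descriptive. They comprised 20 semaphorins, 9 plexins, 2 neuropilins, 9 EphA receptors, 5 EphB receptors, 5 ephrin-A ligands, 3 ephrin-B ligands, 4 netrins and 6 netrin receptors (the Unc5 genes, Dcc and Neo1). They were measured by single-nucleus RNA sequencing of the paraventricular nucleus of the hypothalamus (PVN) in male C57BL/6 mice, all labelled as 10 weeks old. There were 2 libraries at zeitgeber time 20 (ZT20), in the dark phase of the light cycle, and 2 at ZT8, in the light phase. Each library held nuclei from 5 micropunched PVN tissues pooled together, and no genotype or drug distinguished the groups. Nothing in the labels says how the 2 pools of a time were made, so every p-value rests on how far these libraries differ from each other, and that spread may be technical.

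Guidance molecules steer growing axons and migrating cells during development, and many stay on in the adult brain, where they act at synapses, on myelin and on vessels. Semaphorins are secreted or membrane-bound ligands read by plexins, often with a neuropilin as co-receptor. Ephrins are membrane-bound ligands of the Eph receptor tyrosine kinases, with A-type ephrins anchored by a lipid and B-type ephrins spanning the membrane. Netrins are secreted ligands that attract through Dcc and Neo1 and repel through the Unc5 receptors.

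The 4 libraries held 6453 to 9413 barcodes and 57970649 to 69223344 unique molecular identifiers (UMIs, which count captured transcripts), and pairs of libraries shared 10 to 25 barcodes. After filtering, 7747 and 8667 nuclei were kept at ZT20, against 6053 and 6513 at ZT8, with medians of 3437 and 2063 UMIs at ZT20, against 4366 and 5148 at ZT8. Clusters that could not be named, most of them with few UMIs, held 44.2% and 52.2% of nuclei at ZT20, against 30.6% and 32.0% at ZT8. The nuclei captured differed in makeup between the times. Thalamic-like nuclei, marked by Tcf7l2 and Lef1, made up 27.9% and 26.8% of neuron-like nuclei at ZT20, against 53.9% and 54.1% at ZT8. GABAergic-like nuclei made up 35.6% and 35.9% at ZT20, against 21.3% and 20.3% at ZT8. The summed level of 7 PVN neuron markers (Sim1, Otp, Oxt, Avp, Crh, Trh, Pou3f2) in neuron-like nuclei was 212 and 198 CPM (UMI counts scaled to the class total) at ZT20, against 20.2 and 33.1 CPM at ZT8. PVN-like nuclei numbered 206 and 174 at ZT20, against 19 and 24 at ZT8, too few to test. Time and dissection makeup therefore cannot be told apart in sums over all neurons, where fewer nuclei of a type and less RNA per nucleus look alike. Neuronal results were therefore also computed with each neuron cluster scaled to the same nuclei number in every library, termed matched makeup.

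The members were left out of the genes used for clustering, and their levels across classes are described without a test. Of the 63, 39 reached a mean of 50 CPM in at least 1 of 13 classes. Of these 39, 10 were highest in a class of neurons, and 29 were highest in glia, vessels, fibroblasts or cells lining the ventricle. Most of the 13 classes were non-neuronal, some with few nuclei, and the share over all genes was not computed. Neuron classes are sums over clusters, so this ranking holds for classes only. Several of the 29, such as Sema3a, Epha3, Nrp2 and Sema6a, stood higher in a single neuron cluster than in any class. Others, such as Sema3c, Sema3d and Efnb3, did not. For 19 of the 39, the range over libraries in the highest class lay apart from that of the next class. The other 24 stayed under 50 CPM in every class: the semaphorins Sema3b, Sema3f, Sema3g, Sema4c, Sema4f, Sema4g, Sema6b and Sema6c, the ephrins Efna1, Efna2, Efna3, Efna4 and Efnb1, the netrins Ntn3 and Ntn5, and the receptors Plxna1, Plxna3, Epha1, Epha2, Epha8, Ephb3, Ephb4, Ephb6 and Unc5a.

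**Figure D1:**
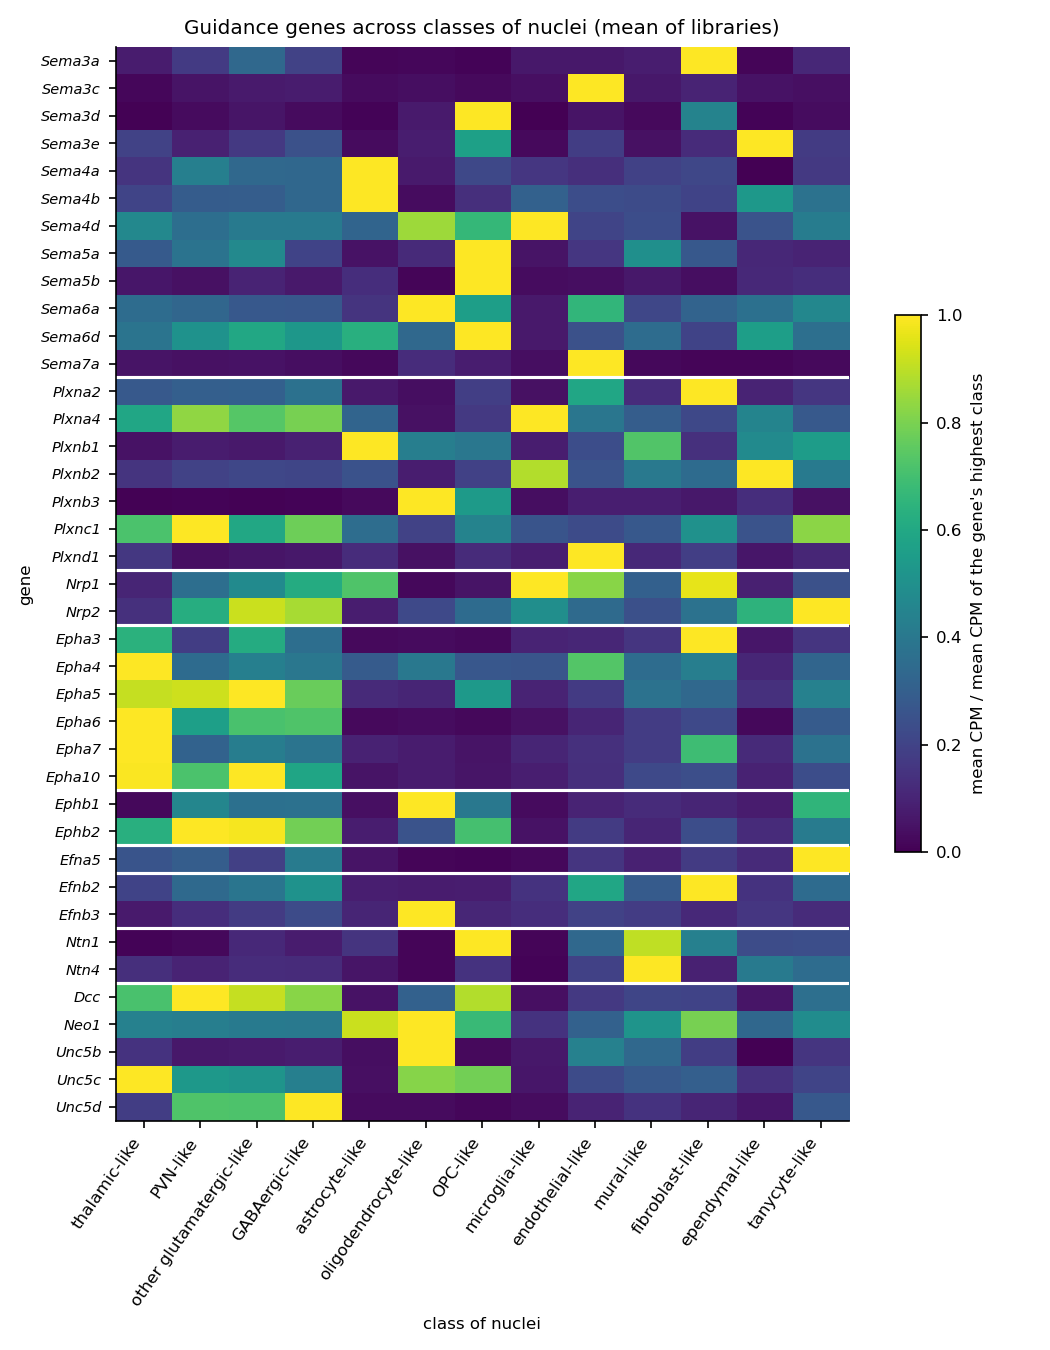
Heat map of the 39 members that reached 50 CPM in some class (down the page, by family) across 13 classes of nuclei (across the page), coloured by each member's mean CPM relative to its own highest class. Each member has 1 class at its own maximum, and for 29 of the 39 it lies outside the neuron classes.

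The secreted class 3 semaphorins that reached 50 CPM were highest in non-neuronal classes. Sema3c, a secreted ligand of plexin and neuropilin complexes, averaged 593 CPM (range 368 to 874) in endothelial-like nuclei, against 59.8 CPM in fibroblast-like nuclei, the next class. Sema3d averaged 429 CPM (range 391 to 475) in nuclei of oligodendrocyte precursors (OPC-like), against 192 CPM in fibroblast-like nuclei. Sema3e, the ligand that binds Plxnd1 without a neuropilin, averaged 141 CPM (range 109 to 186) in ependymal-like nuclei, which numbered only 11 to 17 per library, and 79.7 CPM in OPC-like nuclei. Its receptor Plxnd1 averaged 51.5 CPM (range 29.4 to 68.2) in endothelial-like nuclei, against 9.64 CPM in the next class. Sema3a, the growth cone collapsing ligand, averaged 202 CPM in fibroblast-like nuclei with a range of 44.8 to 342, which overlapped the range in other glutamatergic-like neurons.

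By class, the membrane semaphorins that reached 50 CPM were highest in glia or endothelium, while Sema4f, Sema4g and Sema6b, all under 50 CPM, were highest in neuron classes. Single neuron clusters stood above every class for Sema5a, at 729 CPM in N34, Sema6a, at 791 CPM in N34, and Sema6d, at 1048 CPM in N24. Sema4a, Sema4b, Sema4d, Sema5b and Sema7a stayed below their highest class in every neuron cluster with enough nuclei. OPC-like nuclei were highest for Sema5a at 491 CPM (range 427 to 559), for Sema5b at 254 CPM (range 227 to 302) and for Sema6d at 885 CPM (range 805 to 921). Sema5b stood furthest from its next class, astrocyte-like nuclei, at 33.3 CPM. Sema6a averaged 468 CPM (range 451 to 511) in oligodendrocyte-like nuclei and 307 CPM in endothelial-like nuclei. Astrocyte-like nuclei were highest for Sema4a at 128 CPM (range 103 to 146) and for Sema4b at 66.2 CPM (range 58.7 to 71.6). PVN-like neurons followed for Sema4a at 55.3 CPM, and ependymal-like nuclei, with an overlapping range, for Sema4b. Sema4d, a ligand of Plxnb1, averaged 191 CPM (range 164 to 217) in microglia-like nuclei, and its range overlapped that of oligodendrocyte-like nuclei at 163 CPM. Sema7a, which is tethered to the membrane by a lipid and binds Plxnc1, averaged 224 CPM (range 171 to 330.1) in endothelial-like nuclei, against 28.2 CPM in oligodendrocyte-like nuclei.

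By class, most semaphorin receptors were likewise highest outside the neurons. Plxna4, Nrp1 and Nrp2 nevertheless reached higher levels in a single neuron cluster than in any class. Plxnb3 averaged 139.9 CPM (range 117 to 162) in oligodendrocyte-like nuclei and 76.5 CPM in OPC-like nuclei, with 0.748 CPM in thalamic-like neurons. Plxnb1 averaged 147 CPM (range 135 to 165) in astrocyte-like nuclei and Plxnb2 averaged 119 CPM (range 69.9 to 164) in ependymal-like nuclei, both with ranges that overlapped the next class. Plxna4 at 427 CPM (range 357 to 483) and the co-receptor Nrp1 at 274 CPM (range 247 to 292) were highest in microglia-like nuclei, again with overlap to the next class. Plxna2 averaged 404 CPM (range 278 to 578) in fibroblast-like nuclei, with overlap to endothelial-like nuclei. Nrp2 averaged 195 CPM (range 172 to 218) in tanycyte-like nuclei and 179 CPM in other glutamatergic-like neurons, with overlapping ranges. Plxnc1 averaged 146 CPM (range 134 to 164) in PVN-like neurons and 121 CPM in tanycyte-like nuclei, with overlapping ranges.

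By class, the ephrins that reached 50 CPM were highest outside the neurons. Every EphA receptor that reached it was highest in a neuron class except Epha3, which was higher still in a single neuron cluster. Efna5 (chr17:62604184-62881317, minus strand, RefSeq on GRCm38.p6), a ligand of most EphA receptors, averaged 1442 CPM (range 1190.2 to 1693) in tanycyte-like nuclei, which were numerous enough only in the 2 ZT20 libraries, and 598 CPM in GABAergic-like neurons. Efnb3 averaged 253 CPM (range 222 to 293) in oligodendrocyte-like nuclei, against 57.9 CPM in GABAergic-like neurons. Efnb2, an arterial and axonal ligand of EphB receptors, averaged 90.8 CPM (range 62.7 to 113) in fibroblast-like nuclei, with overlap to endothelial-like nuclei. Thalamic-like neurons were highest for the receptors Epha4 at 269 CPM (range 254 to 287), Epha6 at 1111 CPM (range 1087 to 1126) and Epha7 at 311 CPM (range 278 to 342). The range of Epha4 overlapped that of endothelial-like nuclei and the range of Epha7 that of fibroblast-like nuclei, while Epha6 lay apart from its next class. Other glutamatergic-like neurons were highest for Epha5 at 822 CPM (range 798 to 861) and for Epha10 at 123 CPM (range 110.2 to 129.8), and thalamic-like neurons were level with them for Epha10 at 122 CPM. Epha3 averaged 288 CPM (range 242 to 359) in fibroblast-like nuclei and 184 CPM in thalamic-like neurons. Ephb1 (chr9:101922128-102354693, minus strand) ran the other way: it averaged 454 CPM (range 413 to 497) in oligodendrocyte-like nuclei and 10.3 CPM in thalamic-like neurons, its lowest class. Ephb2 averaged 91.8 CPM (range 68.4 to 115) in PVN-like neurons, with overlap to other glutamatergic-like neurons.

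Netrin ligands were highest outside the neurons, while Dcc, Unc5c and Unc5d were highest within them. Ntn1 averaged 256 CPM (range 241 to 274) in OPC-like nuclei and 231 CPM in mural-like nuclei, with overlapping ranges. In mural-like nuclei, which numbered 20 to 110 per library, it stood at 412 and 348 CPM at ZT20, against 73.5 and 90.4 CPM at ZT8. Ntn4, a netrin of basement membranes, averaged 172 CPM (range 21.7 to 359) there, its lowest value resting on 1 UMI. The mural-like cluster led by Acta2 and Myh11 held 2 and 3 nuclei at ZT20, against 80 and 78 at ZT8, so this class differed in makeup between the times. Dcc averaged 1898 CPM (range 1623 to 2269) in PVN-like neurons and 1732 CPM in other glutamatergic-like neurons, with overlapping ranges. Unc5d averaged 1509 CPM (range 1378 to 1571) in GABAergic-like neurons, with overlap to PVN-like neurons. Unc5c averaged 1612 CPM (range 1589.6 to 1666) in thalamic-like neurons and 1316 CPM in oligodendrocyte-like nuclei, with ranges that lay apart. Unc5b averaged 124 CPM (range 105 to 146) in oligodendrocyte-like nuclei. Neo1 averaged 407 CPM (range 353 to 449) there and 374 CPM in astrocyte-like nuclei, with overlapping ranges. RNA from broken cells can enter any droplet, so 8 neuron markers served as a measure of it. Relative to neuron-like nuclei, their median level was 14.2% in oligodendrocyte-like nuclei (highest marker 92.6%), 15.4% in astrocyte-like nuclei (highest 77.7%), 9.67% in OPC-like nuclei (highest 52.8%) and 15.2% in microglia-like nuclei (highest 137%). The medians were 27.5% in endothelial-like, 37.1% in mural-like, 27.6% in fibroblast-like, 13.4% in ependymal-like and 37.4% in tanycyte-like nuclei, where the highest markers stood at 57.7% to 126%. On the same scale, Ephb1 in oligodendrocyte-like nuclei stood at 530.0%, Efnb3 at 757% and Unc5c at 109%.

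Within the neurons, several members stood far above their median over clusters in 1 or 2 clusters, while Dcc and Unc5c were spread over many. Over 39 of 41 neuron clusters with enough nuclei, Sema3a reached 896 CPM (range over libraries 453 to 1258) in N24, where the median over clusters was 19.9 CPM. The same cluster, a glutamatergic-like cluster led by Ebf2 and found in all 4 libraries with 34 to 54 nuclei each, was also highest for Epha3 and Nrp2. Epha3 reached 1657 CPM (range over libraries 1322 to 2068) in N24, where the median over clusters was 99.8 CPM. Nrp2 reached 759.7 CPM (range over libraries 608 to 892) in N24, where the median over clusters was 115 CPM. Another cluster led by Ebf2, N34, was highest for Sema5a and Unc5c. Sema5a reached 729 CPM (range over libraries 617 to 899) in N34, where the median over clusters was 128 CPM. Unc5c reached 2633 CPM (range over libraries 2295 to 2939.6) in N34, where the median over clusters was 857 CPM. Dcc and Epha7 were highest in thalamic-like clusters. Dcc reached 3392 CPM (range over libraries 3285 to 3591) in N1, where the median over clusters was 1566 CPM, and Epha7 reached 612 CPM (range over libraries 598 to 633) in N7, where the median over clusters was 112 CPM. Ntn1 reached 112 CPM (range over libraries 73.1 to 131) in N14, where the median over clusters was 6.07 CPM. These neuron clusters were chosen for description after their values were seen. Ephb1 and Nrp1 were both highest in cluster N31, at 604 CPM (561 to 698) and 501 CPM (480 to 535), and that cluster held 46 and 61 nuclei at ZT20, against 1 and 3 at ZT8.

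In all neuron-like nuclei together, 18 of the 59 members tested were higher at ZT20 and 20 were lower by edgeR's quasi-likelihood test with Benjamini-Hochberg adjustment over all genes, at an adjusted p under 0.05. That is 30.5% higher and 33.9% lower, where 21.7% of all 19562 genes tested were called higher and 21.7% lower. The median log2 change of the members was 0.01, as over all genes, and the median size of change was 0.21, against 0.18 over all genes. All 3 ephrin-B ligands and both neuropilins were higher, and all 8 EphA receptors tested were lower. The other 21 tested were not called, Dcc, Plxnc1 and Sema6d among them, and 4 (Epha2, Efna1, Efna4 and Ntn5) had too few counts to test.

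Among ligands, Efna5 stood at 439 and 464 CPM at ZT20, against 353 and 352 CPM at ZT8 in neuron-like nuclei (log2 change 0.30, SE 0.023, adjusted p = 2.7e-10). The ligand Efnb3 stood at 39.9 and 40.5 CPM at ZT20, against 27.0 and 26.5 CPM at ZT8 (log2 change 0.53, SE 0.044, adjusted p = 9.9e-10). Ntn1, the best studied netrin, stood at 14.5 and 16.3 CPM at ZT20, against 8.6 and 9.08 CPM at ZT8 (log2 change 0.74, SE 0.076, adjusted p = 3.7e-08). Each of these ligands was higher in both ZT20 libraries than in either ZT8 library. Sema3d, a secreted semaphorin, stood at 12.9 and 12.9 CPM at ZT20, against 7.89 and 6.12 CPM at ZT8 (log2 change 0.84, SE 0.092, adjusted p = 1.2e-07). Among receptors, Ephb1 differed most, with 116 and 116 CPM at ZT20, against 54.8 and 56.4 CPM at ZT8 (log2 change 1.00, SE 0.030, adjusted p = 7.3e-17), with no overlap between the times. The neuropilins moved less: Nrp1 stood at 98.5 and 105 CPM at ZT20, against 60.7 and 63.6 CPM at ZT8 (log2 change 0.65, SE 0.034, adjusted p = 5.6e-13). Nrp2 stood at 112 and 111 CPM at ZT20, against 72.7 and 74.1 CPM at ZT8 (log2 change 0.55, SE 0.029, adjusted p = 4.9e-13). Unc5a, a repulsive netrin receptor, stood at 27.1 and 28.0 CPM at ZT20, against 20.6 and 19.7 CPM at ZT8 (log2 change 0.40, SE 0.052, adjusted p = 1.7e-06).

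The members lower at ZT20 in neuron-like nuclei were mainly receptors. Unc5c stood at 1092 and 1096 CPM at ZT20, against 1355 and 1307 CPM at ZT8 (log2 change -0.34, SE 0.019, adjusted p = 2.2e-12). Epha3 stood at 136 and 138 CPM at ZT20, against 175 and 171 CPM at ZT8 (log2 change -0.40, SE 0.025, adjusted p = 1.1e-11). Epha7, whose highest class was thalamic-like neurons, stood at 199 and 198 CPM at ZT20, against 233 and 238 CPM at ZT8 (log2 change -0.30, SE 0.022, adjusted p = 2.1e-10). The groups did not overlap for any of these receptors. Epha4, which binds both A- and B-type ephrins, stood at 178 and 180.0 CPM at ZT20, against 208 and 209 CPM at ZT8 (log2 change -0.28, SE 0.023, adjusted p = 1.1e-09). Epha6 stood at 913 and 891 CPM at ZT20, against 1008 and 1039 CPM at ZT8 (log2 change -0.24, SE 0.020, adjusted p = 1.3e-09). Epha10, a kinase-inactive member of the family, stood at 103 and 98.4 CPM at ZT20, against 117 and 110.2 CPM at ZT8 (log2 change -0.23, SE 0.032, adjusted p = 3.8e-06). Neo1, a receptor of netrins and of repulsive guidance molecules, stood at 165 and 166 CPM at ZT20, against 186 and 176 CPM at ZT8 (log2 change -0.18, SE 0.027, adjusted p = 6.8e-06). Plxnd1, at a low level in neurons, stood at 5.11 and 3.83 CPM at ZT20, against 7.22 and 6.9 CPM at ZT8 (log2 change -0.71, SE 0.12, adjusted p = 2.7e-05).

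**Figure D2:**
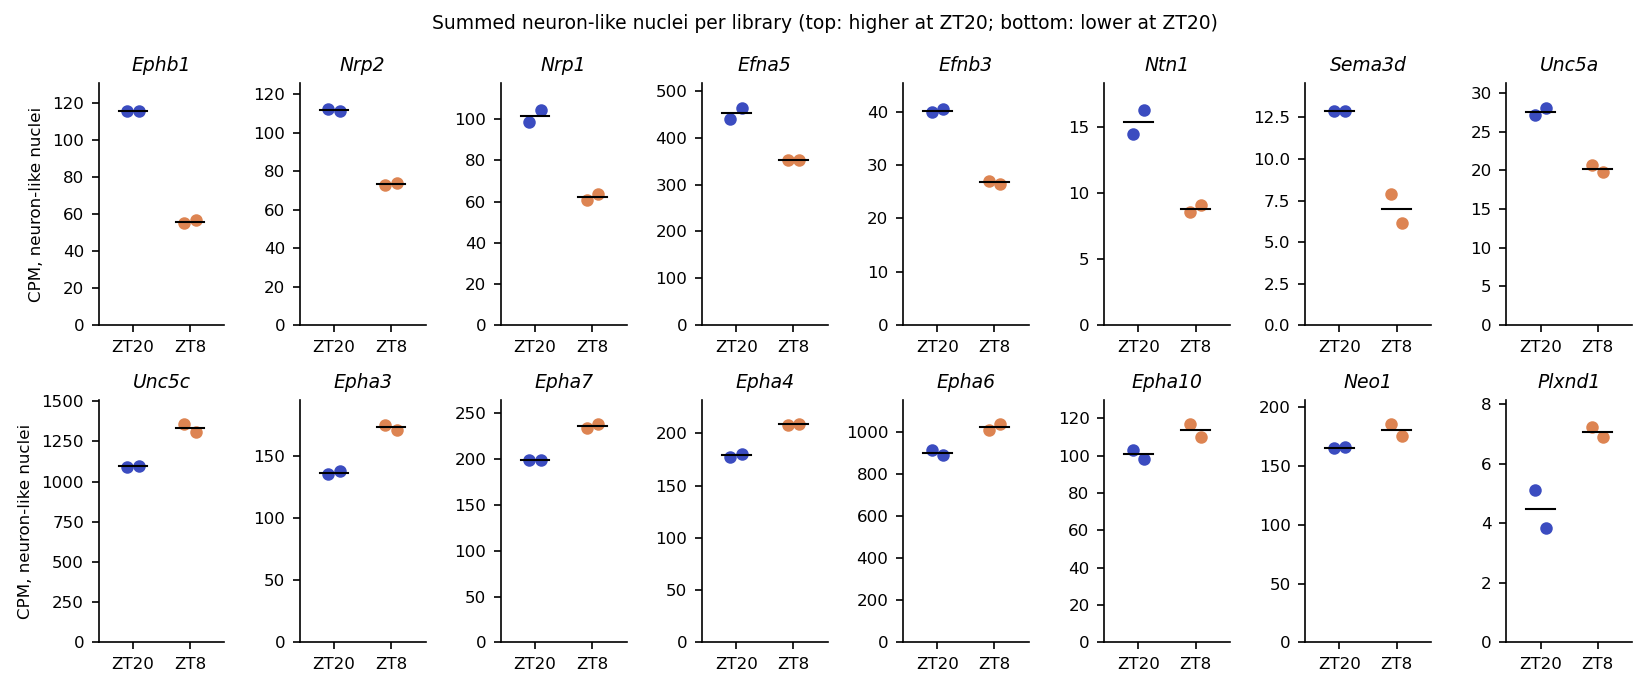
CPM of the 16 named members in neuron-like nuclei, 1 panel per member, with 1 point per library (2 ZT20 libraries left, 2 ZT8 libraries right). The ZT20 points lie apart from the ZT8 points in each panel, as the rule that named these members required, with values from 116 and 116 CPM at ZT20, against 54.8 and 56.4 CPM at ZT8 for Ephb1, to 103 and 98.4 CPM at ZT20, against 117 and 110.2 CPM at ZT8 for Epha10.

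With the makeup of neuron clusters matched, the picture in neurons changed. Matching used 31 of the 41 clusters and 1509 nuclei per library. It left out clusters with under 10 nuclei in any library, among them N31, highest for Ephb1 and Nrp1, and N11, highest for Efna5. Removal of such clusters and equal makeup of the rest were not told apart. Of 58 members tested, 16 were then higher at ZT20 and 3 lower, 27.6% and 5.17%, where 13.3% and 12.1% of all genes tested were called. Of the 38 members called over all neuron-like nuclei, 37 could be tested; 9 were still higher, 3 still lower and 5 called in the opposite direction, while 13 kept their sign without a call and 7 changed sign without one. The 5 that turned to higher were the receptors Epha1, Epha4 and Epha6 and the semaphorins Sema3e and Sema6a. The log2 change of Epha4 became 0.14 (adjusted p = 3.4e-05) and that of Epha6 0.084 (adjusted p = 4.1e-04). Epha3 and Epha7 moved to 0.011 (adjusted p = 0.832) and 0.010 (adjusted p = 0.806). Of the 8 EphA receptors tested, 3 were higher and none lower under matched makeup. The change of Ephb1 shrank to 0.14 (adjusted p = 0.00556) and that of Unc5a to 0.061 (adjusted p = 0.538), while Efna5 kept 0.20 (adjusted p = 9.8e-10), Ntn1 0.40 (adjusted p = 2.3e-04) and Sema3d 0.47 (adjusted p = 3.6e-04). Efnb3 kept 0.21 (adjusted p = 0.00161), Nrp1 0.19 (adjusted p = 1.3e-04) and Nrp2 0.21 (adjusted p = 1.3e-05). The call of Unc5c was lost at -0.032 (adjusted p = 0.197). Plxnd1 stayed lower at -0.42 (adjusted p = 0.00954) and Neo1 at -0.11 (adjusted p = 0.00233). Leaving out the thalamic-like clusters instead, a setting chosen after seeing the data, gave 10 members higher and 10 lower of 58 tested, against 11.9% and 10.8% of all genes, with Nrp2 at -0.034 (adjusted p = 0.559) and Unc5c at 0.082 (adjusted p = 0.0477).

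Thalamic-like neurons, of which each library held 748 to 1379 nuclei, had 4 of 8 EphA receptors tested higher at ZT20 and none lower. Here 10 of 57 members tested were higher at ZT20 and 3 lower, 17.5% and 5.26%, where 10.6% and 8.95% of all genes tested were called. The EphA receptors called higher were Epha1, Epha4, Epha7 and Epha10. Epha7 stood at 338 and 342 CPM at ZT20, against 278 and 284 CPM at ZT8 (log2 change 0.29, SE 0.028, adjusted p = 1.2e-13), and under matched makeup its change was 0.10 (adjusted p = 0.00573). Epha4 stood at 278 and 287 CPM at ZT20, against 254 and 255 CPM at ZT8 (log2 change 0.17, SE 0.029, adjusted p = 4.7e-06), and under matched makeup its change was 0.22 (adjusted p = 8.5e-07). Their ligand Efna5 stood at 406 and 407 CPM at ZT20, against 341 and 355 CPM at ZT8 (log2 change 0.24, SE 0.027, adjusted p = 5.6e-11), with 0.19 (adjusted p = 6.0e-07) under matched makeup. The other members called higher were Sema3e, Sema6a, Nrp1, Epha1, Epha10, Efnb1 and Unc5b, with log2 changes of 0.13 to 0.38. Under matched makeup the calls of Efnb1, at 0.30 (adjusted p = 0.118), and Unc5b, at 0.098 (adjusted p = 0.507), were lost, and those of the other 5 held. The lower members were semaphorins and Neo1. Sema5a, a semaphorin with thrombospondin repeats, stood at 126 and 130.3 CPM at ZT20, against 151 and 146 CPM at ZT8 (log2 change -0.20, SE 0.035, adjusted p = 1.3e-05), and this call was lost under matched makeup at -0.011 (adjusted p = 0.895). Sema3a stood at 14.4 and 11.9 CPM at ZT20, against 20.3 and 15.9 CPM at ZT8 (log2 change -0.43, SE 0.11, adjusted p = 0.00844) and Neo1 at 169 and 171 CPM at ZT20, against 193 and 184 CPM at ZT8 (log2 change -0.13, SE 0.032, adjusted p = 0.00172). Under matched makeup their changes were -0.55 (adjusted p = 3.8e-04) for Sema3a and -0.14 (adjusted p = 0.00237) for Neo1. The call of Neo1 was lost without ZT8 library 1 and that of Sema3a without ZT8 library 1 or ZT20 library 2. Under matched makeup 12 of 56 were higher and 2 lower, beside 10.3% and 8.43% of all genes, and DESeq2 called only 4 members without matching.

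The E-box CACGTG occurred in the promoter windows of the members at a share near that over all genes. This hexamer is the canonical site of CLOCK and BMAL1, the activators of the circadian clock, and of several other basic helix-loop-helix factors. Promoter windows of 250 bases before to 50 bases after the start site, taken from RefSeq on GRCm38.p6, were found for 54 of the 63 members. The hexamer, which reads the same on both strands, occurred in 4 of 68 member promoters (5.88%) and in 2349 of 32851 promoters of all genes (7.15%). Counted by gene, it occurred in 4 of the 54 members (7.41%). The 4 belonged to Sema3e, Sema6d, Sema4b and Epha8. Sema3e was called in a single neuron cluster and Sema6d in both directions, while Sema4b and Epha8 were not called in any. The windows of Sema3e and Sema6d are shown with the hexamer in capitals, together with that of Efna5, the member with time differences in the most neuron clusters, whose window held no such hexamer. Sema3e lies at chr5:14025026-14025325 on the plus strand, Sema6d (the upstream of its start sites) at chr2:124089719-124090018 on the plus strand, and Efna5 at chr17:62881268-62881567 on the minus strand.
Sema3e: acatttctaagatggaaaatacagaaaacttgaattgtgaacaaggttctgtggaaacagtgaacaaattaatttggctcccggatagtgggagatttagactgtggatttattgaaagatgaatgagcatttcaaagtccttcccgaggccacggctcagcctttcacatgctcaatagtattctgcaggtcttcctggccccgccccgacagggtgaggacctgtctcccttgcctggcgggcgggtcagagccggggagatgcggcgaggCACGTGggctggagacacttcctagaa
Sema6d: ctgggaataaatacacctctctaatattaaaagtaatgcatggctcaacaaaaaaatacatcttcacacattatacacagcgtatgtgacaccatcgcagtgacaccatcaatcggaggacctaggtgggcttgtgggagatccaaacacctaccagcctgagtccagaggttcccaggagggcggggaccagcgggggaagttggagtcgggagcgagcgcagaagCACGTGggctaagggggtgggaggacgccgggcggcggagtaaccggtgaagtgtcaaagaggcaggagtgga
Efna5: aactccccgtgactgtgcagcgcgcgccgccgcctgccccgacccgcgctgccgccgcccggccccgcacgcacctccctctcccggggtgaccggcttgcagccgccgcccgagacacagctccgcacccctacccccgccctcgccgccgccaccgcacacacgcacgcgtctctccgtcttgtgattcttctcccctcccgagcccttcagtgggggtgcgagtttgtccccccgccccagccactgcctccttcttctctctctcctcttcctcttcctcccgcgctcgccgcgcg
The other Sema6d window, at chr2:124653331-124653630 on the plus strand, held no such hexamer. The hexamer began 23 bases after the start site in Sema3e and 23 bases before it in Sema6d. A match describes these letters only, and says nothing about binding.

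In glutamatergic-like neurons as a whole, 18 of 59 members were higher at ZT20 and 12 lower, beside 19.2% and 19.3% of all genes, and 16 of 57 were higher and 3 lower under matched makeup, beside 12% and 11.1%. Ephb1 stood at 93.4 and 95.7 CPM at ZT20, against 34.5 and 38.0 CPM at ZT8 (log2 change 1.33, SE 0.042, adjusted p = 1.2e-21), and matching reduced its change to 0.19 (adjusted p = 0.00231). Nrp1 stood at 76.1 and 83.2 CPM at ZT20, against 42.0 and 45.9 CPM at ZT8 and Nrp2 at 97.5 and 96.7 CPM at ZT20, against 54.8 and 54.3 CPM at ZT8, with log2 changes of 0.81 and 0.79 and matched changes of 0.27 (adjusted p = 1.3e-05) and 0.26 (adjusted p = 1.5e-06). Lower were Unc5c, at 1267 and 1266 CPM at ZT20, against 1499 and 1429 CPM at ZT8, and Epha3, at 160.5 and 159 CPM at ZT20, against 193 and 184 CPM at ZT8, with log2 changes of -0.25 and -0.28 that matching reduced to -0.039 (adjusted p = 0.139) and -0.042 (adjusted p = 0.326). Epha4 stood at 203 and 202 CPM at ZT20, against 228 and 228 CPM at ZT8 (log2 change -0.21, SE 0.026, adjusted p = 3.8e-08) and turned to 0.16 (adjusted p = 2.6e-06) under matched makeup. DESeq2 called 18 members in these nuclei.

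Other glutamatergic-like neurons, those that were neither thalamic-like nor PVN-like, had 10 of 54 members higher at ZT20 and 4 lower, 18.5% and 7.41%, where 6.03% and 5.1% of all genes tested were called. Ntn1 stood at 35.5 and 36.5 CPM at ZT20, against 22.2 and 24.8 CPM at ZT8 (log2 change 0.62, SE 0.10, adjusted p = 7.3e-05), and its change was as large under matched makeup, at 0.62 (adjusted p = 6.5e-04). Ephb1 stood at 193 and 189.7 CPM at ZT20, against 137 and 148 CPM at ZT8 (log2 change 0.43, SE 0.052, adjusted p = 2.2e-07), and its call was lost under matched makeup at 0.084 (adjusted p = 0.429). Plxna4, a plexin that pairs with neuropilins, stood at 342 and 333 CPM at ZT20, against 279 and 306 CPM at ZT8 (log2 change 0.21, SE 0.046, adjusted p = 0.0019). Its call was lost under matched makeup, at 0.094 (adjusted p = 0.273), and without ZT8 library 1. Efna5, named here after its values were seen, stood at 304 and 337 CPM at ZT20, against 203 and 247 CPM at ZT8 (log2 change 0.51, SE 0.11, adjusted p = 0.0447), with 0.64 (adjusted p = 1.7e-08) under matched makeup. Lower were Epha3, at 151 and 140.3 CPM at ZT20, against 219 and 197 CPM at ZT8 (log2 change -0.50, SE 0.053, adjusted p = 3.9e-08), Unc5d, at 995 and 1019 CPM at ZT20, against 1203 and 1139 CPM at ZT8 (log2 change -0.21, SE 0.039, adjusted p = 3.4e-04), and Sema6d, at 504 and 493 CPM at ZT20, against 576 and 552 CPM at ZT8 (log2 change -0.17, SE 0.041, adjusted p = 0.00551). None of these lower calls held under matched makeup, where the changes were -0.036 (adjusted p = 0.813), -0.11 (adjusted p = 0.146) and 0.12 (adjusted p = 0.0973), and that of Sema6d was also lost without ZT20 library 2. Under matched makeup 6 of 54 were higher and 0 lower, beside 3.98% and 2.91% of all genes, and DESeq2 called 5 without matching.

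In GABAergic-like neurons more members were called lower at ZT20 than higher. Of 55 tested, 7 were higher and 14 lower, 12.7% and 25.5%, where 10.2% and 9.04% of all genes tested were called. The other 34 were not called. The median member log2 change was -0.026, and 0.018 under matched makeup. Of 7 EphA receptors tested, 1 was higher and 5 lower. Under matched makeup Epha5, Epha7 and Epha10 were lower, Epha6 turned to 0.17 (adjusted p = 0.0235) and was called higher, Epha3 was called higher at 0.52 (adjusted p = 4.7e-05), and Epha4 and Epha8 were not called. Epha7 stood at 85.9 and 87.4 CPM at ZT20, against 147 and 159 CPM at ZT8 (log2 change -0.84, SE 0.055, adjusted p = 7.3e-11), and it stayed lower under matched makeup at -0.44 (adjusted p = 3.9e-04). Epha10 stood at 52.7 and 48.9 CPM at ZT20, against 91.6 and 95.8 CPM at ZT8 (log2 change -0.90, SE 0.067, adjusted p = 5.6e-10), with -0.34 (adjusted p = 0.00981) under matched makeup. Sema6d, a membrane ligand of Plxna1, stood at 405 and 396 CPM at ZT20, against 518 and 552 CPM at ZT8 (log2 change -0.44, SE 0.044, adjusted p = 8.1e-08), and its call was lost under matched makeup at 0.047 (adjusted p = 0.681). The higher members included Efnb3, at 63.3 and 67.8 CPM at ZT20, against 50.9 and 49.4 CPM at ZT8 (log2 change 0.37, SE 0.073, adjusted p = 6.6e-04), which held under matched makeup at 0.37 (adjusted p = 0.00975). Its receptor Ephb2 stood at 80.6 and 79.8 CPM at ZT20, against 65.9 and 62.8 CPM at ZT8 (log2 change 0.30, SE 0.064, adjusted p = 0.00136), and Plxnc1 at 124 and 123 CPM at ZT20, against 111 and 97.7 CPM at ZT8 (log2 change 0.23, SE 0.058, adjusted p = 0.00585), with matched changes of 0.17 (adjusted p = 0.308) and 0.14 (adjusted p = 0.254). The call of Plxnc1 was also lost without ZT8 library 2. Under matched makeup 3 of 53 members were higher and 6 lower, beside 4.25% and 2.74% of all genes. DESeq2 called 0 higher and 7 lower without matching.

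Within single neuron clusters, members were called higher at ZT20 more often than lower. Over 12 clusters with at least 50 nuclei in every library there were 576 member tests, of which 31 were called higher and 13 lower, in 24 of 55 members tested anywhere. Over all genes, 1.64% of such tests were called higher and 1.04% lower. The share of all genes called in any cluster was not computed, so the 24 of 55 has no comparison. In single clusters the called share of all genes ran from 0.257% to 4.05% higher and from 0.0857% to 2.94% lower. DESeq2 called 16 higher and 5 lower, given without its share over all genes. The members and clusters described here were chosen after their values were seen. Efna5 had the most calls: it was above 0 in 11 of the 12 clusters, called higher in 6 and lower in 1. Of the 8998 genes tested in all 12 clusters, 6.97% were above 0 in at least 11.

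In N12, a glutamatergic-like cluster outside the thalamic-like set, Efna5 stood at 182 and 215 CPM at ZT20, against 75.9 and 120.1 CPM at ZT8 (log2 change 0.98, SE 0.16, adjusted p = 0.00163). In N5, led by Galntl6 and Lmx1a, it stood at 299.7 and 217 CPM at ZT20, against 154 and 157 CPM at ZT8 (log2 change 0.73, SE 0.14, adjusted p = 0.0322). In the thalamic-like clusters N0, N1, N3 and N7 its log2 changes were 0.34, 0.28, 0.30 and 0.36. The GABAergic-like cluster N15, led by Meis2 and Pde1a, ran opposite, with 484 and 523 CPM at ZT20, against 885 and 806 CPM at ZT8 (log2 change -0.78, SE 0.12, adjusted p = 1.6e-04). The groups of libraries did not overlap in any of these clusters.

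Among the receptors, Epha6 was higher at ZT20 in N0, N1, N5 and N6 and lower in none, and in N5 it stood at 927 and 758 CPM at ZT20, against 591 and 598 CPM at ZT8 (log2 change 0.50, SE 0.084, adjusted p = 0.00202). Dcc was higher in N1, N6 and N13, with 812 and 805 CPM at ZT20, against 671 and 631 CPM at ZT8 (log2 change 0.34, SE 0.060, adjusted p = 0.00114) in N6. Epha4 was higher in N0 and N7, with 266 and 267 CPM at ZT20, against 197 and 193 CPM at ZT8 (log2 change 0.45, SE 0.061, adjusted p = 4.4e-06) in N0. None of these receptors was called lower in a cluster. Among the semaphorins, Sema6a was higher in N0 and N1, with 251 and 284 CPM at ZT20, against 196 and 182 CPM at ZT8 (log2 change 0.52, SE 0.077, adjusted p = 3.5e-09) in N1. Sema3a was lower in the GABAergic-like cluster N2, led by Gad2 and Meis2, with 23.3 and 14.0 CPM at ZT20, against 46.6 and 78.3 CPM at ZT8 (log2 change -1.80, SE 0.26, adjusted p = 4.6e-06). Sema7a was lower in N15, with 0.897 and 2.75 CPM at ZT20, against 18.8 and 18.3 CPM at ZT8 (adjusted p = 0.0034), the ZT20 levels resting on very few counts. Besides Efna5, members called in both directions were Sema6d, higher in N4 and N6 and lower in N0, Unc5d, higher in N4 and lower in N0 and N1, Plxna4, higher in N1 and lower in N3, and Epha3, higher in N10 and lower in N3.

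Fewer members were called in glia, whose summed counts per class were lower than those of the neurons. In oligodendrocyte-like nuclei 3 of 49 members tested were higher at ZT20 and 9 lower, 6.12% and 18.4%, where 5.47% and 4.78% of all genes were called, and the median member change was -0.18, against 0.00051 over all genes. Ephb1 stood at 497 and 481 CPM at ZT20, against 425 and 413 CPM at ZT8 (log2 change 0.25, SE 0.055, adjusted p = 2.1e-04). Plxnb3, the plexin highest in these nuclei, stood at 162 and 152 CPM at ZT20, against 128 and 117 CPM at ZT8 (log2 change 0.39, SE 0.090, adjusted p = 5.9e-04), a call lost without ZT20 library 1 or ZT8 library 2. Unc5d stood at 50.3 and 56.8 CPM at ZT20, against 31.0 and 43.1 CPM at ZT8 (log2 change 0.53, SE 0.16, adjusted p = 0.013), a call lost without ZT20 library 2 or ZT8 library 1, at a level of 6.13% of that in neurons. Lower were Unc5c, at 1202 and 1159 CPM at ZT20, against 1498 and 1406 CPM at ZT8 (log2 change -0.27, SE 0.039, adjusted p = 3.0e-09), and Epha4, at 88.9 and 87.7 CPM at ZT20, against 119 and 133 CPM at ZT8 (log2 change -0.49, SE 0.10, adjusted p = 1.0e-04). Efnb3, the ligand highest in these nuclei, stood at 229 and 222 CPM at ZT20, against 269.9 and 293 CPM at ZT8 (log2 change -0.30, SE 0.070, adjusted p = 9.2e-04), a call lost without ZT8 library 2. Called neuron markers ran in the direction of the 9 lower members and not of the 3 higher ones. In oligodendrocyte-like nuclei 4 of 8 neuron markers and 5 of 8 thalamic markers were lower at ZT20, and 0 were higher. Their summed levels were 2081 and 1961 CPM at ZT20, against 2304 and 2327 CPM at ZT8 for neuron markers, and 482 and 513 CPM at ZT20, against 642 and 670.1 CPM at ZT8 for thalamic markers. Their part in the member calls was not tested. DESeq2 called 5 members here, and leaving out ZT8 library 2 left 6, ZT20 library 1 left 7 and ZT20 library 2 left 7.

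In astrocyte-like nuclei 1 of 45 members tested was higher and 0 lower by edgeR, beside 3.83% and 2.48% of all genes, with 9 members at an unadjusted p under 0.05 and 0 called by DESeq2. It was Ntn1, at 53.9 and 42.2 CPM at ZT20, against 23.7 and 35.3 CPM at ZT8 (log2 change 0.76, SE 0.20, adjusted p = 0.00939), and the call was lost without ZT20 library 1 (adjusted p = 0.389), ZT20 library 2 (adjusted p = 0.0999) or ZT8 library 1 (adjusted p = 0.267). In OPC-like nuclei, the class with the highest Sema3d, Sema5a, Sema5b, Sema6d and Ntn1, 0 of 39 members were called by edgeR or DESeq2, with 4 at an unadjusted p under 0.05, beside 0.911% of all genes higher and 0.334% lower. In microglia-like nuclei 0 of 21 were higher and 1 lower by edgeR, beside 0.818% and 0.522% of all genes. This was Unc5c, at 51.8 and 56.6 CPM at ZT20, against 195 and 97.3 CPM at ZT8 (log2 change -1.40, SE 0.31, adjusted p = 0.00525), a level of 8.27% of that in neurons where neuron markers stood at 6.79% to 137%, and the call was lost without ZT8 library 1 and by DESeq2.

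The time differences were then compared between classes of the same libraries by an interaction test. Between astrocyte-like and neuron-like nuclei, 1 of 61 members differed above 0 and 3 below, beside 1.72% and 1.52% of all genes. Between oligodendrocyte-like and neuron-like nuclei, 0 of 60 differed above 0 and 4 below, beside 1.59% and 2.58%. Between GABAergic-like and glutamatergic-like neurons, 7 of 59 differed above 0 and 17 below, beside 4.25% and 5.97%. Under matched makeup the counts were 0 above and 1 below for the astrocyte-like comparison (0.696% and 0.938% of all genes), 0 and 10 for the oligodendrocyte-like one (1.15% and 2.09%) and 1 and 6 for the GABAergic-like one (0.583% and 1%). The change of Epha7 in GABAergic-like minus that in glutamatergic-like neurons was -0.77 (SE 0.058, adjusted p = 4.4e-10), and -0.50 (adjusted p = 1.1e-05) under matched makeup. For Ephb1 the same difference was -1.345 (SE 0.064, adjusted p = 1.1e-13), but -0.17 (adjusted p = 0.377) under matched makeup. For Efnb3, the change in oligodendrocyte-like minus that in neuron-like nuclei was -0.88 (SE 0.082, adjusted p = 1.8e-23), and -0.53 (adjusted p = 1.4e-06) under matched makeup.

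Genes that act with the members moved in both directions in neuron-like nuclei. Of 18 semaphorin co-receptors and effectors, all tested, 2 were higher and 6 lower, with a median log2 change of -0.04, against 0.01 over all genes. Chl1, an adhesion molecule that couples to neuropilins, stood at 281 and 294 CPM at ZT20, against 235 and 229.9 CPM at ZT8 (log2 change 0.25), and Farp1, an exchange factor downstream of plexins, stood at 229 and 226 CPM at ZT20, against 276 and 285 CPM at ZT8 (log2 change -0.36). Of 20 ephrin and Eph effectors 7 were higher and 8 lower, with a median of -0.04. Ngef, the exchange factor ephexin that acts under EphA receptors, stood at 19.9 and 19.0 CPM at ZT20, against 11.3 and 11.3 CPM at ZT8 (log2 change 0.73), and Vav3, another exchange factor, at 394 and 389.7 CPM at ZT20, against 635 and 609.6 CPM at ZT8 (log2 change -0.72). Of 16 netrin and repulsive guidance molecule partners 4 were higher and 7 lower, with a median of -0.03. Dscaml1, an adhesion molecule related to the netrin receptor Dscam, stood at 104 and 99.1 CPM at ZT20, against 62.2 and 65.9 CPM at ZT8 (log2 change 0.61), and Rgma, a ligand of Neo1, at 23.4 and 23.6 CPM at ZT20, against 32.1 and 31.8 CPM at ZT8 (log2 change -0.50). Ntng1, a lipid-anchored netrin relative that also serves as a thalamic marker here, stood at 1941 and 1906 CPM at ZT20, against 2685 and 2744 CPM at ZT8 (log2 change -0.55). Over all genes 21.7% were higher and 21.7% lower. Under matched makeup 2 of 18 semaphorin partners were higher and 2 lower, 3 of 20 ephrin effectors were higher and 1 lower, and 5 of 15 netrin partners were higher and 2 lower, where 13.3% of all genes were higher and 12.1% lower. The change of Ngef was then 0.035 and that of Vav3 0.035, both not called, and that of Rgma was -0.094 and not called, while Ntng1 turned to 0.054 and was called higher. Dscaml1 at 0.19 and Farp1 at -0.15 kept their calls.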

How the data were processed

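The authors deposited gene by barcode matrices of UMI counts from 10x Chromium 3' libraries of nuclei, made with Cell Ranger 7.0.0 per the file headers. STAR 2.6 and the mm10 build are named in the submitters' processing notes. From those deposited counts, nuclei were kept from 500 genes upward, with mitochondrial counts capped at 5%, and nuclei with the highest Scrublet doublet scores were removed at 0.8% per 1000 nuclei, since its automatic threshold marked at most 1 nucleus in a library. Nuclei were clustered with scanpy 1.11.5 and leidenalg 0.10.2 (3000 variable genes without the members, 40 components, 20 neighbours, resolution 1), and clusters were named from 18 marker lists. Summed counts of each class in each library were tested with edgeR 4.0.16 (filterByExpr, TMM, robust quasi-likelihood, R 4.3.3) where every library held at least 50 nuclei, with Benjamini-Hochberg adjustment over all genes and 0.05 as threshold. CPM are counts over the class total, and levels needed 10 nuclei in a library. For matched makeup, each neuron cluster with at least 10 nuclei in every library was scaled to the lowest number of nuclei. DESeq2 1.42.0, other scalings, filters and clusterings, a replicate block and leaving out each library were the alternatives, and the fits were tested on simulated data. Member counts by DESeq2 are given without the share of all genes it called. Named members were the called members with the smallest p and non-overlapping libraries, up to 8 per direction in neuron-like nuclei, 3 in other classes, and 4 per interaction. For levels they were up to 3 members per class, of at least 50 CPM there, with the largest ratio to the next class, and further levels were added to account for the members of each family. The members and lists were chosen with earlier results of these data known.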

Additional observations from a re-analysis of the deposited data

Results flagged for a closer look

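The time difference differed between classes by the interaction test for the following members. In astrocyte-like minus neuron-like nuclei the difference of log2 changes was -0.49 for Sema4a, -0.54 for Nrp1, -1.25 for Ephb1 and 0.39 for Dcc. With the neuron makeup matched these were -0.19, -0.10, -0.41 and 0.28, and none was called. Without matching, the call of Dcc was lost whichever library was left out, that of Ephb1 without ZT20 library 1 or ZT8 library 2, and that of Sema4a without ZT20 library 2, ZT8 library 1 or ZT8 library 2. In oligodendrocyte-like minus neuron-like nuclei it was -1.27 for Sema3d, -0.80 for Ephb1, -0.88 for Efnb3 and -0.44 for Sema5a. With matched makeup it was -0.89 for Sema3d (adjusted p = 0.00499), 0.089 for Ephb1 (adjusted p = 0.649), -0.53 for Efnb3 (adjusted p = 1.4e-06) and -0.54 for Sema5a (adjusted p = 0.00723). Without matching, the call of Sema5a was lost without ZT20 library 1, ZT20 library 2 or ZT8 library 1. In GABAergic-like minus glutamatergic-like neurons it was -1.01 for Nrp2, -0.77 for Epha7, -0.87 for Nrp1 and -1.345 for Ephb1. With matched makeup it was -0.17, -0.50, -0.23 and -0.17, and only that of Epha7 was called (adjusted p = 1.1e-05).

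Other members were called in opposite directions, with libraries that moved opposite ways, in pairs of classes whose difference was not tested. The difference of their log2 changes was 0.675 for Epha4 in GABAergic-like minus oligodendrocyte-like nuclei and 1.52 for Unc5c in other glutamatergic-like minus microglia-like nuclei. It was 1.13 for Epha7 and 1.03 for Epha10 in thalamic-like minus GABAergic-like neurons, and 0.74 for Unc5d in oligodendrocyte-like minus other glutamatergic-like nuclei. For Unc5b and Efnb3 in GABAergic-like minus oligodendrocyte-like nuclei it was 0.85 and 0.66, and for Ntn1 in astrocyte-like minus GABAergic-like nuclei it was 1.21. Between neuron clusters, likewise not tested, it was 0.71 for Sema6d and 0.60 for Unc5d in N4 minus N0, 0.52 for Plxna4 in N1 minus N3, 1.61 for Epha3 in N10 minus N3 and 1.76 for Efna5 in N12 minus N15.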

How the results depend on the processing

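Counts of members called moved by more than 1.5 times under some settings. With matched makeup they were 19 in neuron-like and 19 in glutamatergic-like nuclei, 6 in other glutamatergic-like and 9 in GABAergic-like nuclei, against 38, 30, 14 and 21 without matching. For the differences between classes matching gave 1 (astrocyte-like minus neuron-like), 10 (oligodendrocyte-like minus neuron-like) and 7 (GABAergic-like minus glutamatergic-like), against 4, 4 and 24. Without thalamic-like clusters, a setting added after seeing the data as was matching in thalamic-like and other glutamatergic-like nuclei, neuron-like nuclei gave 20. DESeq2 gave 18 in glutamatergic-like, 4 in thalamic-like, 5 in other glutamatergic-like, 7 in GABAergic-like, 0 in astrocyte-like, 5 in oligodendrocyte-like and 0 in microglia-like nuclei, 1, 2 and 10 for the differences between classes, and 21 calls in neuron clusters, against 44. In astrocyte-like nuclei the count was 2 without a filter on low counts, with the stricter nucleus filter and with the members allowed in clustering, which gave 0 in microglia-like nuclei.

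Leaving out 1 library at a time gave 30 to 34 members in neuron-like, 24 to 28 in glutamatergic-like, 9 to 12 in thalamic-like, 8 to 14 in other glutamatergic-like, 17 to 23 in GABAergic-like, 0 to 2 in astrocyte-like, 6 to 10 in oligodendrocyte-like, 0 to 1 in OPC-like and 0 to 2 in microglia-like nuclei. It gave 1 to 3, 3 to 4 and 12 to 23 for the differences between classes, and 31 to 36 calls in neuron clusters. The counts that moved by more than 1.5 times were 8 in other glutamatergic-like nuclei without ZT20 library 2, 7, 7 and 6 in oligodendrocyte-like nuclei without ZT20 library 1, ZT20 library 2 and ZT8 library 2, 1 in OPC-like nuclei without ZT20 library 2, and 0 and 2 in microglia-like nuclei without ZT8 library 1 and ZT8 library 2. In astrocyte-like nuclei the count was 2 without ZT8 library 2 and 0 without any of the others. For astrocyte-like minus neuron-like nuclei it was 2, 2 and 1 without ZT20 library 1, ZT20 library 2 and ZT8 library 2, and for GABAergic-like minus glutamatergic-like neurons 12 and 14 without ZT20 library 1 and ZT20 library 2. The lone library of a time is then assumed to vary like the pair of the other time.

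Signs turned in 11 settings of named members. Without thalamic-like clusters Nrp2 turned to -0.034 and Unc5c to 0.082. With matched makeup the changes in neuron-like nuclei turned to 0.011 for Epha3, 0.010 for Epha7, 0.14 for Epha4, 0.084 for Epha6 and 0.049 for Epha10. They turned to 0.16 for Epha4 in glutamatergic-like, 0.12 for Sema6d in other glutamatergic-like and 0.047 for Sema6d in GABAergic-like nuclei, and to 0.089 for Ephb1 in oligodendrocyte-like minus neuron-like nuclei. The cause was not tested.

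Replicate numbers do not pair the libraries by label, and same-numbered deviations correlated at -0.04 to 0.04. With the replicate number as a block the counts were 38 in neuron-like, 30 in glutamatergic-like, 15 in thalamic-like, 16 in other glutamatergic-like, 24 in GABAergic-like, 2 in astrocyte-like, 12 in oligodendrocyte-like, 0 in OPC-like and 1 in microglia-like nuclei, and 49 in neuron clusters. With 2 libraries per time, small changes of low members in glia, and any change in PVN-like, vessel and ventricular nuclei, could not be assessed.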
